A study of Mus musculus with 4 samples.

Results

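Synaptic adhesion molecules with leucine-rich repeats, and the receptors they bind, were examined in brain cortex of male SAMR1 mice. The set was drawn up by family around Lrtm2, one of the genes furthest above the water level after TCQA in these arrays, and holds 41 genes in 13 families, of which 39 of 19505 measured genes were found on the array by gene symbol. Cadm2 and Lrfn1 were not analysed here. Since the difference between TCQA and water brought Lrtm2 and its relatives to attention, the members' differences are given as descriptions and support nothing by themselves. The TCQA group had received oral TCQA, short for tricaffeoylquinic acid, a polyphenol of plants, at 5 mg/kg daily for 1 month from an age of 11 months, and the control group had received MilliQ water. All mice were of SAMR1, the senescence-resistant control line of the senescence-accelerated mouse strains, and had been kept singly from 7 months of age for 4 months. RNA from 2 samples per group was hybridised to Clariom S mouse arrays, 4 in all. Whether a sample was 1 mouse or a pool of animals is not stated. The p-values therefore reflect only the spread between these samples, in part that of all tested genes together. This spread could be technical, and precision is limited by having 4 arrays.

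Synaptic adhesion molecules hold the presynaptic and postsynaptic membranes together and instruct where and as what a synapse forms. On the axon side stand the neurexins and the LAR-type receptor tyrosine phosphatases, which recruit the release machinery. On the dendrite side stand their ligands, among them the neuroligins and several families whose extracellular part is built of leucine-rich repeats, such as the LRRTM, Slitrk, Lrfn and Lrrc4 proteins. Latrophilins, which are adhesion G protein-coupled receptors, bind FLRT proteins and teneurins. Many of these genes are broadly expressed by cortical neurons, and several are linked to autism, intellectual disability or obsessive behaviour in people.

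The starts of the genes on which the results turn are shown for orientation, as the 250 bases before the outermost RefSeq start on GRCm38.p6, written 5′ to 3′ on the gene's strand. They are those of Lrtm2 at chr6:119330767-119331016 (minus strand), Lrtm1 at chr14:29017958-29018207 (plus strand), Lrfn5 at chr12:61522917-61523166 (plus strand) and Ptprf at chr4:118291398-118291647 (minus strand). Capitals mark CAGCTG, a form of the E-box bound by basic helix-loop-helix factors, which reads the same on both strands.
Lrtm2: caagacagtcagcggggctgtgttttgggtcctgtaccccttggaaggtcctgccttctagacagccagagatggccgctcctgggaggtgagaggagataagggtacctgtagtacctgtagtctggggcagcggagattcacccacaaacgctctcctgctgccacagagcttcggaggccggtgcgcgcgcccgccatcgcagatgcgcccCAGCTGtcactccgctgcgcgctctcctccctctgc
Lrtm1: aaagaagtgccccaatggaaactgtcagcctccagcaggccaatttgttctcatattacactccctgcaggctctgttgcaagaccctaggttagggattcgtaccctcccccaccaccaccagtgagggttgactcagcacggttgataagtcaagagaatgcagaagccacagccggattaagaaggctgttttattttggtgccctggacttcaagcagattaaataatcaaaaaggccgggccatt
Lrfn5: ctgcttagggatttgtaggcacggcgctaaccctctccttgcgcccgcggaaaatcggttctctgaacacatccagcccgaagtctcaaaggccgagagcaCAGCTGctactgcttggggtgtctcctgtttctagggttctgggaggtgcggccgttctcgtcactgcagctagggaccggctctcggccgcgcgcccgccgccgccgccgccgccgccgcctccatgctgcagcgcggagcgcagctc
Ptprf: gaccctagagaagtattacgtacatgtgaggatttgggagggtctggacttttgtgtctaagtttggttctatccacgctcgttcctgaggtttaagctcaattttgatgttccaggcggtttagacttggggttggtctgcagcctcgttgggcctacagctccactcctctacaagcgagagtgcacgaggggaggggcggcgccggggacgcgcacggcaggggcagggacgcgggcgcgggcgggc
The Lrtm2 stretch had 63.2% G and C and 15 CpG steps, and the Lrtm1 stretch had 49.2% and 4. Those of Lrfn5 (66.4%, 27) and Ptprf (59.2%, 18) were richer in CpG than the median of 6 over all 32851 such RefSeq windows. CAGCTG occurred once in the Lrtm2 and once in the Lrfn5 stretch, and 13.0% of all windows hold it on either strand. The GC box GGGCGG, searched on both strands, occurred 2 times in the Ptprf stretch, and 32.7% of all windows hold it. Neither TATAAA, which 12.4% of all windows hold on either strand, nor TGACGTCA, the full cAMP response element, which 1.55% hold, was among the letters of these 4 stretches. Windows existed for 32 of the 41 members, 3 of which held CAGCTG. These matches describe the letters only and say nothing on binding.

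The 4 arrays were close to each other, with correlations across genes of 0.9925 within the TCQA group, 0.9919 within the water group and 0.9898 to 0.9927 across groups. Array values have no true zero, so the negative control probe sets served as a yardstick, with a median of 6.98 and a 95th percentile of 11.06 on the log2 scale. Of the 39 members, 23 had both group means above that percentile, and Lrtm1 lay below the median in both groups. The other 15 had their brighter group mean at or above the median, and 2 of them, Lrrtm1 (water mean 6.77) and Slitrk6 (TCQA mean 6.94), had the dimmer mean below it, so that their differences are uncertain in size. Of the 11 measured markers of cortical excitatory neurons, 10 lay above the control median in their brighter group, while Emx1 did not. Of all 19572 tested transcript clusters, 9505 had both group means below that median. Of 8 measured striatal markers 0 did, so that this yardstick does not tell cortex from other regions. The arrays differed in markers of other regions. Means over 8 striatal markers were 13.39 and 12.79 in TCQA 1 and 2, against 14.42 and 13.19 in water 1 and 2. Means over 7 myelin markers were 11.02 and 10.95 after TCQA and 11.79 and 11.14 after water, and means over 7 olfactory bulb markers were 6.25 and 8.20 after TCQA and 6.62 and 6.43 after water. The cortical excitatory markers averaged 10.95 and 10.91 after TCQA and 10.34 and 10.80 after water, so that water 1 was lowest. In whole tissue, fewer cells of a type and less RNA per cell cannot be told apart.

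Across the set, most differences between TCQA and water were small. The median log2 difference was 0.036, against 0.0028 over all tested transcript clusters. With 1 array left out it lay between 0.0042, without TCQA 2, and 0.11, without water 2, and under quantile normalisation it was -0.0045. In all, 23 of 39 members were higher after TCQA and 16 lower, where 50.5% of all tested were higher. The median size of the difference was 0.19 for the members and 0.19 for all tested. By size, 23 members differed by less than 0.25 on the log2 scale and 5 by at least 0.5, namely Lrtm2, Ptprf, Lrfn5, Slitrk6 and Lrfn3. None of these 5 had a group mean above the upper percentile of the negative controls given above, so that their differences are uncertain in size. With limma and Benjamini-Hochberg adjustment 0 of 19572 transcript clusters passed, members included. An unadjusted p under 0.05 was reached by 3 of 39 members, Lrtm2 and Lrfn5 above the water level and Ptprf below it, while 7.37% of all tested reached it (3.48% higher and 3.89% lower). The study's criteria, an unadjusted p under 0.05 and more than 2-fold, were met by 1 member, Lrtm2, and by 0.664% of all tested. The groups did not overlap in 20 of 39 members, 12 higher and 8 lower after TCQA, and in 39.2% of all tested, 19.9% higher and 19.2% lower. They were apart with a difference of at least 0.3 in 8 of 39 members and in 23.3% of all tested. Because Lrtm2 was chosen on this contrast, its place among the called genes is no result.

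**Figure D1:**
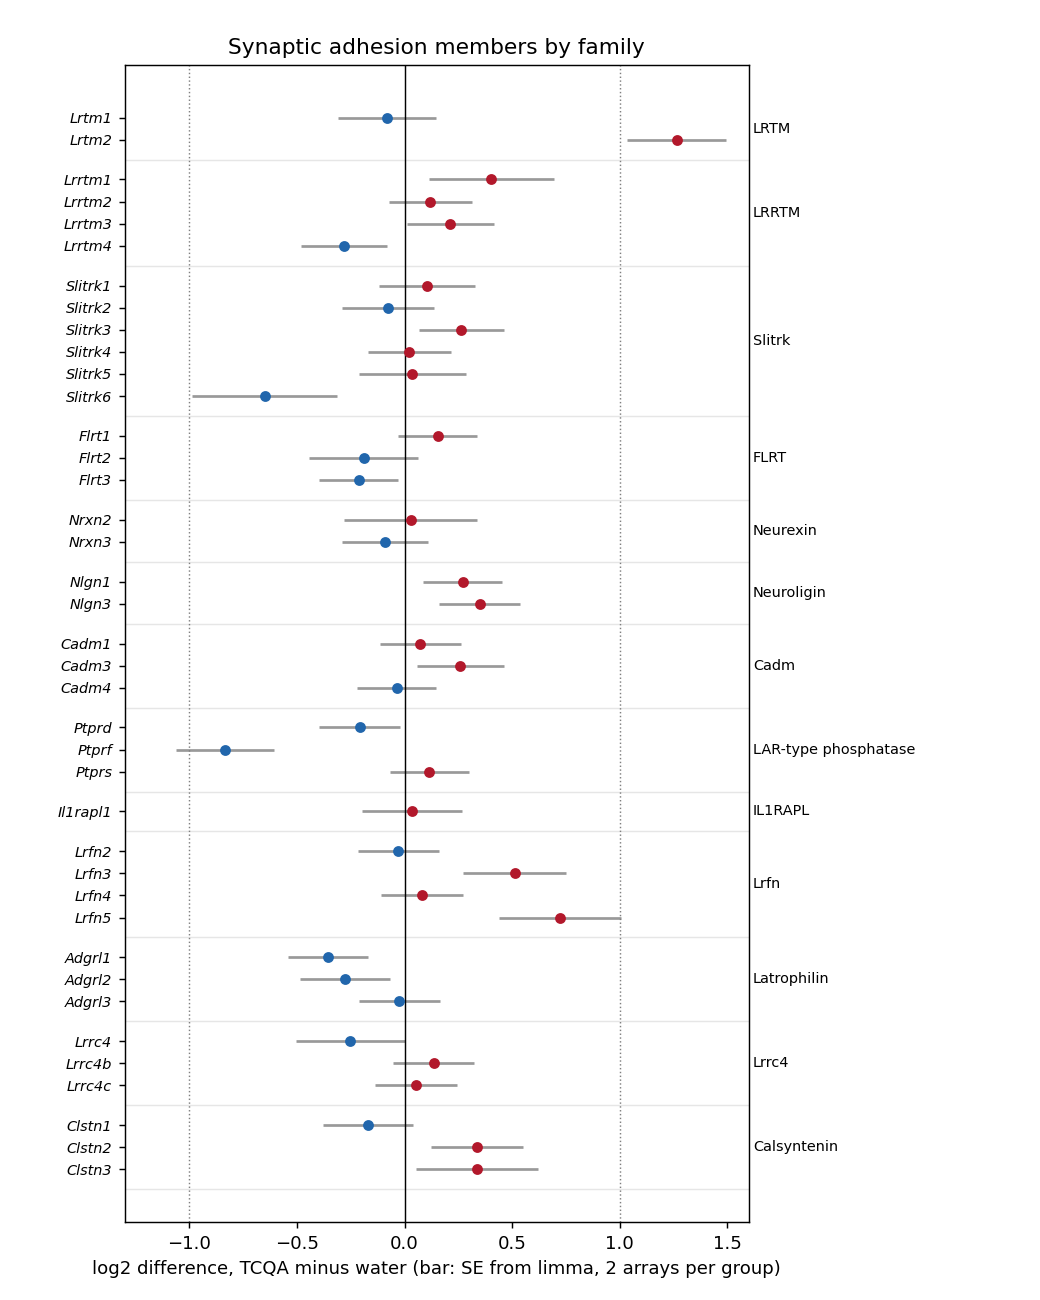
Log2 difference, TCQA minus water, of the 39 measured members by family, as points with the SE from limma (2 arrays per group); dotted lines mark 2-fold. Lrtm2 at 1.26 is the only point beyond 2-fold, Ptprf at -0.84 is the lowest, and most others lie within 0.25 of 0.

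Lrtm2, which was chosen on this contrast, is set beside its nearest relative, Lrtm1, whose signal was too dim to show a difference reliably. Lrtm2 encodes a single-pass membrane protein with extracellular leucine-rich repeats, and Lrtm1 is the other member of its family. Lrtm2 (transcript cluster TC0600003016.mm.2, chromosome 6) had log2 signals of 8.96 and 9.46 on the TCQA arrays, against 7.91 and 7.98 on the water arrays. Both TCQA arrays were above both water arrays, and the water arrays were 0.064 apart while the TCQA arrays were 0.49 apart. The difference was 1.26 on the log2 scale (SE 0.23), or 2.40-fold higher after TCQA. Both group means lay between the median and the 95th percentile of the negative controls, so that the fold is uncertain in size. With 1 array left out the difference ranged between 1.02, without TCQA 2, and 1.51, without TCQA 1. It was 1.23 without water 1, the array with the most striatal and myelin signal and the least cortical excitatory signal. Lrtm2 was highest in TCQA 2, as were the means of the olfactory bulb and inhibitory neuron markers. Of these, 5 of 7 and 4 of 8 genes were highest in TCQA 2, and 1 of each list was lowest there. Choroid plexus markers, lower after TCQA for 8 of 8 genes, had means of 7.83 and 7.03 after TCQA and 9.39 and 8.68 after water. The part of these and other cell type markers in the Lrtm2 value was not tested. Lrtm1 had 5.23 and 4.85 after TCQA, against 5.27 and 4.96 after water, a difference of -0.080 (SE 0.23). Its groups overlapped, all 4 values lay under the negative control median, and the sign changed when TCQA 2 (0.11) or water 1 (0.076) was left out.

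Lrtm2 and 7 other members lie inside the span of a larger gene in the RefSeq annotation, and the differences of the 8 host genes lay between -0.16 and 0.10. Cacna2d4, a calcium channel subunit gene that spans Lrtm2, had 5.81 and 4.64 after TCQA, against 5.19 and 5.59 after water, and differed by -0.16 (SE 0.39). All 4 of its values lay below the negative control median. Cacna2d3, which spans Lrtm1, differed by -0.11 (SE 0.25). The alpha-catenin genes Ctnna2, Ctnna1 and Ctnna3, which span Lrrtm1, Lrrtm2 and Lrrtm3, differed by -0.033, -0.012 and -0.018. Macrod1, Macrod2 and Snd1, which span Flrt1, Flrt3 and Lrrc4, differed by -0.0039, -0.16 and 0.10. None of these 8 hosts reached an unadjusted p under 0.05 (limma), and 0 passed after adjustment.

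The LRRTM proteins, postsynaptic ligands of neurexins at excitatory synapses, had differences of both signs. Lrrtm1 had 6.79 and 7.55 after TCQA, against 6.91 and 6.63 after water, a difference of 0.40 (SE 0.29). TCQA 2 alone was high, the groups overlapped, and the difference was 0.023 without TCQA 2 and 0.78 without TCQA 1. TCQA 2 also had the highest means of the olfactory bulb and inhibitory neuron markers. Of these, 5 of 7 and 4 of 8 genes were highest there, and 1 of each list was lowest there. Their part in the Lrrtm1 value was not tested. Lrrtm2 had 12.80 and 12.79 after TCQA, against 12.57 and 12.78 after water, a difference of 0.12 (SE 0.19). Lrrtm3 had 13.27 and 13.51 after TCQA, against 13.29 and 13.07 after water, with overlapping groups and a difference of 0.21 (SE 0.20). Lrrtm4, which also binds glypicans, had 14.16 and 13.96 after TCQA, against 14.23 and 14.44 after water, a difference of -0.28 (SE 0.20), opposite in sign to the other 3. The median of the 4 genes was 0.17, and 0.060 without TCQA 2.

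**Figure D2:**
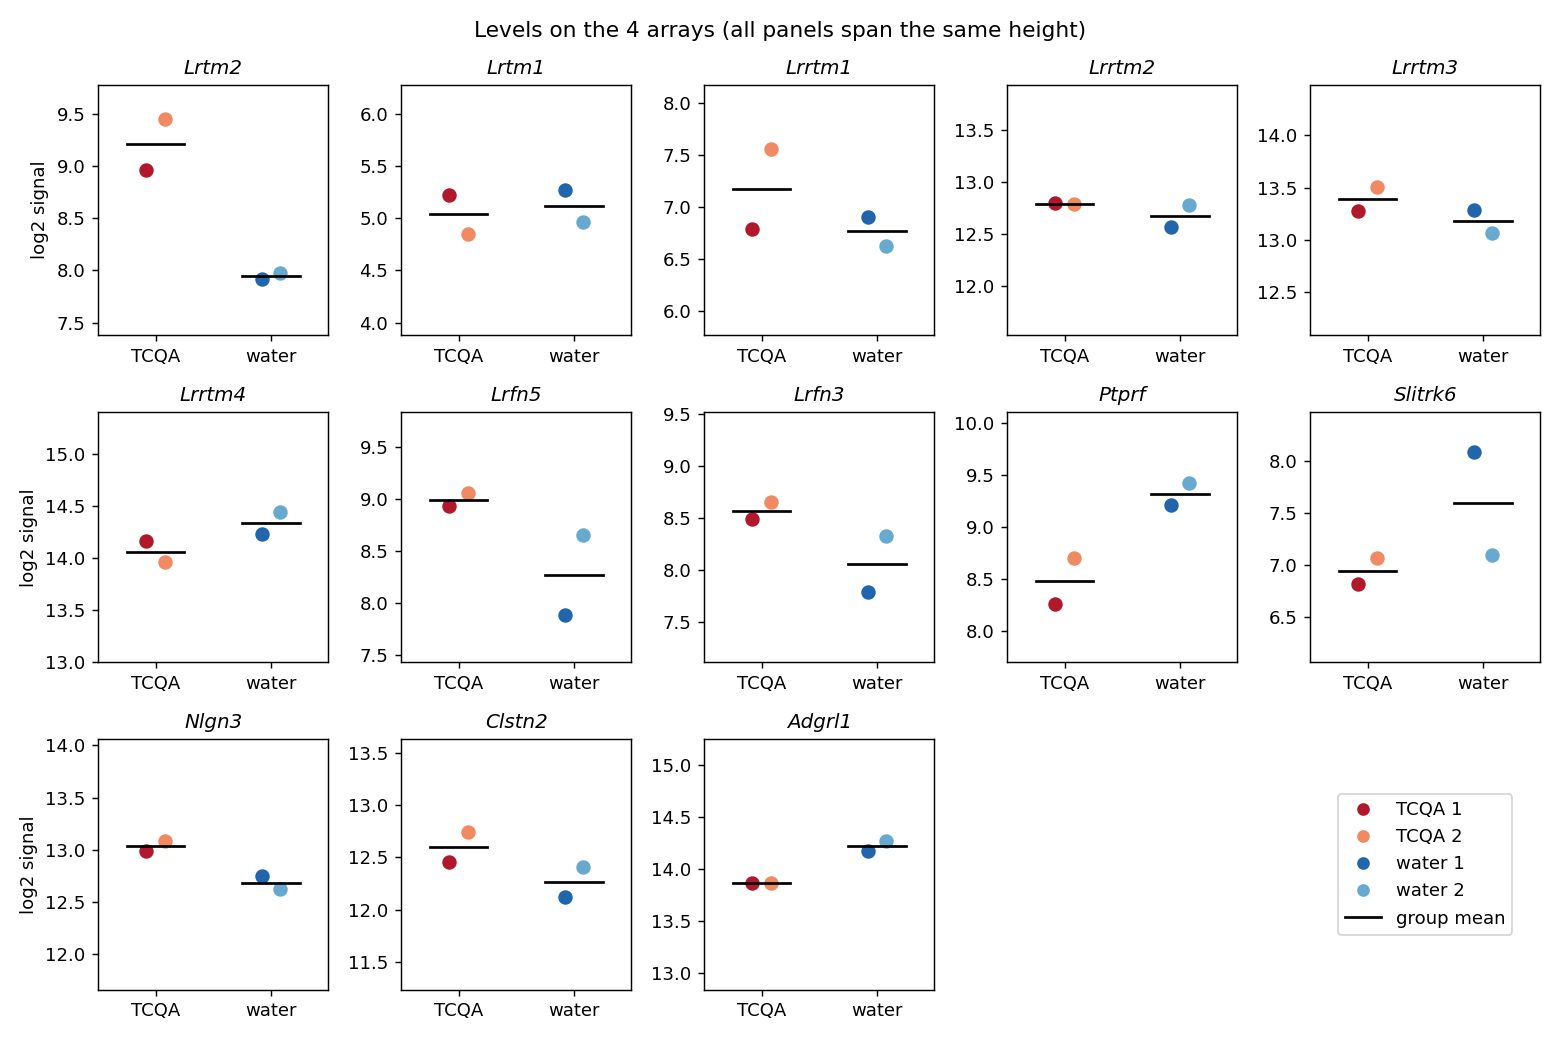
Log2 signal on the 4 arrays (points) with group means (lines) for Lrtm2, its relatives and the other members whose groups do not overlap and whose group means differ by at least 0.3. Every panel spans the same height. Lrtm2 has 8.96 and 9.46 after TCQA, against 7.91 and 7.98 after water, whereas in Lrfn5, Lrfn3 and Slitrk6 the water arrays lie far apart.

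The 6 Slitrk genes encode ligands of the LAR-type phosphatases. Among them Slitrk6 differed most, with 6.82 and 7.06 after TCQA, against 8.08 and 7.10 after water. Water 1 alone was high, while water 2 lay close to the TCQA arrays. The difference was -0.65 (SE 0.34), and it was -0.16 without water 1 and -1.14 without water 2. The mean of the thalamic markers was also highest in water 1, with means over 8 genes of 8.08 and 8.88 after TCQA and 9.20 and 8.41 after water. Of the 8 genes, 6 were highest in water 1 and 2, Rgs16 and Calb2, in TCQA 2. Calb2 is also in the olfactory bulb list. Between groups 4 were higher and 4 lower after TCQA, and 2 lay below the negative control median. The part of these markers in the Slitrk6 value was not tested. Slitrk3, a ligand that acts at inhibitory synapses, had 10.68 and 10.73 after TCQA, against 10.57 and 10.31 after water, a difference of 0.26 (SE 0.20). The other members, Slitrk1, Slitrk2, Slitrk4 and Slitrk5, differed by 0.10, -0.077, 0.022 and 0.036, their groups overlapped, and each changed sign in at least 1 fit with an array left out.

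The Lrfn proteins, also called SALMs, are postsynaptic, and Lrfn5 and Lrfn3 bind LAR-type phosphatases across the cleft. Lrfn5 had 8.93 and 9.06 after TCQA, against 7.89 and 8.65 after water, a difference of 0.72 (SE 0.28) or 1.65-fold. The TCQA arrays were close and above both water arrays, and water 1 was far below water 2. Its unadjusted p under 0.05 was lost without TCQA 1 (0.79), without TCQA 2 (0.66) and without water 1 (0.34), and the difference was 1.10 without water 2. Lrfn3 had 8.49 and 8.66 after TCQA, against 7.79 and 8.32 after water, a difference of 0.51 (SE 0.24), with 0.25 without water 1 and 0.78 without water 2. For Lrfn5 and Lrfn3 both group means lay between the negative control median and upper percentile, so that the differences are uncertain in size. The mean of the cortical excitatory markers was lowest in the same array, water 1. Of the 11 measured, 9 were lowest there, while 2, Bcl11b and Foxp2, were highest there. The part of these markers in the Lrfn5 and Lrfn3 values was not tested. Lrfn2, whose protein binds the PSD-95 scaffold, and Lrfn4 differed by -0.029 and 0.083 and had overlapping groups.

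The LAR-type receptor tyrosine phosphatases, the presynaptic partners of the Slitrk and Lrfn proteins, differed in opposite directions. Ptprf, which encodes LAR itself, had 8.26 and 8.70 after TCQA, against 9.21 and 9.42 after water. As with Lrtm2, both group means lay between the negative control median and upper percentile, so that the fold is uncertain in size. Both TCQA arrays were below both water arrays, and the difference of -0.84 (SE 0.23), or 1.78-fold lower, was larger than the gap within either group. Its unadjusted p under 0.05 was lost without TCQA 1, where the difference was -0.61. Choroid plexus markers were also lower after TCQA, for 8 of 8 genes, 3 of them below the negative control median in both groups. Their means were 7.83 and 7.03 on the TCQA arrays and 9.39 and 8.68 on the water arrays. All measured striatal (8 of 8), myelin (7 of 7) and microglia (7 of 7) markers were lower after TCQA as well. Their median differences were -0.70, -0.46 and -0.075, against -1.49 for the choroid plexus markers. The groups overlapped in 6 of 8 striatal, 2 of 7 myelin and 5 of 7 microglia markers, and in 2 of 8 choroid plexus markers. Without water 1 the Ptprf difference was -0.94, and a part of any of these markers in it was not tested. Ptprd had 13.14 and 13.19 after TCQA, against 13.30 and 13.45 after water, a difference of -0.21 (SE 0.19). Ptprs had 15.41 and 15.46 after TCQA, against 15.31 and 15.34 after water, a difference of 0.12 (SE 0.18). Il1rapl1, whose protein binds Ptprd and is linked to intellectual disability in people, had 12.13 and 12.38 after TCQA, against 11.99 and 12.45 after water, and differed by 0.035 (SE 0.23).

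**Figure D3:**
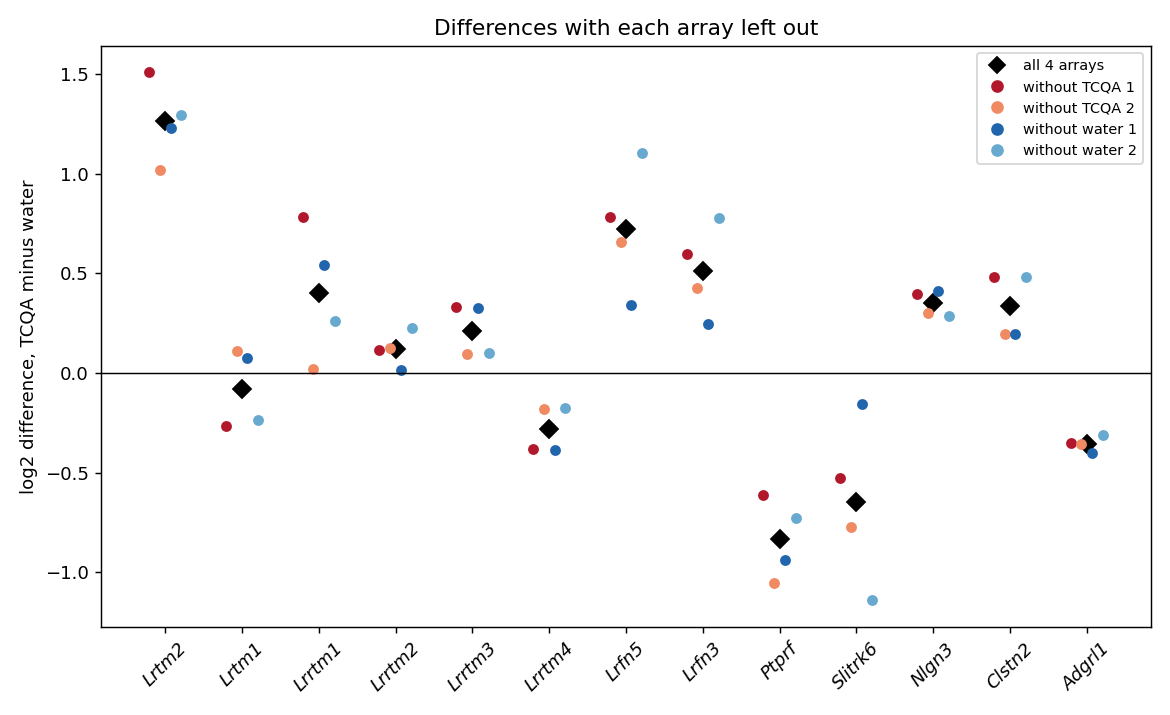
Log2 difference, TCQA minus water, with all 4 arrays (diamonds) and with each array left out (circles). Lrtm2 stays between 1.02 and 1.51 and Adgrl1 between -0.40 and -0.31, while Lrrtm1 ranges between 0.023 and 0.78 and Slitrk6 between -1.14 and -0.16.

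Both neuroligins measured among the members were slightly above the water level, and the neurexins lay near it. A further neuroligin, Nlgn2, which is in the list of partners below, differed in the other direction, by -0.38 (SE 0.19). Nlgn3, which acts at excitatory and inhibitory synapses, had 12.99 and 13.08 after TCQA, against 12.75 and 12.62 after water. Its groups were apart, and the difference of 0.35 (SE 0.19) was between 0.29 and 0.41 with any 1 array left out. Nlgn1, the neuroligin of excitatory synapses, had 12.94 and 13.02 after TCQA, against 12.71 and 12.72 after water, a difference of 0.27 (SE 0.18). Nrxn2 had 9.67 and 10.08 after TCQA, against 9.45 and 10.24 after water, and Nrxn3 had 13.48 and 13.69 after TCQA, against 13.76 and 13.59 after water. Their differences were 0.028 (SE 0.31) and -0.091 (SE 0.20), both with overlapping groups, and the Nrxn2 arrays of the water group were 0.79 apart.

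All 3 latrophilins were below the water level. Adgrl1 had 13.86 and 13.87 after TCQA, against 14.17 and 14.27 after water, and its groups were far apart relative to their spread. The difference was -0.35 (SE 0.18), and -0.40 to -0.31 with any 1 array left out. Adgrl2 had 9.43 and 9.30 after TCQA, against 9.47 and 9.81 after water, a difference of -0.28 (SE 0.21), of -0.11 without water 2. Adgrl3 had 11.84 and 11.69 after TCQA, against 11.83 and 11.76 after water, an overlapping pair of groups whose difference of -0.024 (SE 0.19) turned positive without TCQA 2 (0.050) or water 1 (0.010). Of the FLRT genes, whose proteins bind latrophilins, Flrt3 had 8.30 and 8.34 after TCQA, against 8.53 and 8.53 after water, a difference of -0.21 (SE 0.18) with narrow groups. Flrt1 had 9.26 and 9.26 after TCQA, against 9.15 and 9.06 after water, a difference of 0.15 (SE 0.18). Flrt2 had 11.88 and 11.73 after TCQA, against 11.69 and 12.30 after water, so that the water arrays lay on either side of the TCQA arrays and the difference was -0.19 (SE 0.25).

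Calsyntenins, cadherin-type proteins of which Clstn3 binds neurexins, had 2 members above the water level. Clstn2 had 12.46 and 12.74 after TCQA, against 12.12 and 12.41 after water, a difference of 0.34 (SE 0.21), of 0.19 without TCQA 2 or without water 1. Clstn3 had 12.15 and 12.24 after TCQA, against 11.47 and 12.25 after water. Water 1 was low and water 2 highest of all, and the difference of 0.34 (SE 0.29) became -0.052 without water 1 and 0.73 without water 2. Clstn1, which links cargo to kinesin in axonal transport, had 14.74 and 14.71 after TCQA, against 14.72 and 15.07 after water, a difference of -0.17 (SE 0.21).

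The netrin-G ligands of the Lrrc4 family differed little. Lrrc4, the ligand of netrin-G2, had 10.15 and 9.92 after TCQA, against 9.999 and 10.58 after water, with overlapping groups and a difference of -0.25 (SE 0.25). Lrrc4b, which binds LAR-type phosphatases, differed by 0.14 (SE 0.19), and Lrrc4c, the ligand of netrin-G1, by 0.053 (SE 0.19). Of the Cadm genes, whose immunoglobulin-type products bind each other across the cleft and along axons, Cadm3 had 13.04 and 12.83 after TCQA, against 12.57 and 12.78 after water, a difference of 0.26 (SE 0.20). Cadm1 and Cadm4 differed by 0.074 (SE 0.19) and -0.035 (SE 0.18).

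How far apart the 2 arrays of a group lay set the scale for these differences. The median gap was 0.15 between the TCQA arrays and 0.21 between the water arrays over the members, against 0.22 and 0.24 over all tested transcript clusters, and no member had a gap of over 1, while 2.13% and 2.25% of all tested had one. The difference exceeded the gap in both groups for 15 of 39 members, and for 26.8% of all tested. In log2 units Lrtm2 and Ptprf exceeded it by the most, with differences of 1.26 and 0.84 in size against gaps of up to 0.49 and 0.44. Lrtm2 was chosen on this contrast, so its place here is no result. Relative to the gap, the differences of Flrt3 (0.21 in size against up to 0.032) and Adgrl1 (0.35 against up to 0.092) were larger. Water 1 was the lowest of the 4 arrays for 17 of 39 members (43.6%), against 26.6% of all tested. With each array left out in turn, 24 members kept their sign in all 4 fits and 15 changed it in at least 1.

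**Figure D4:**
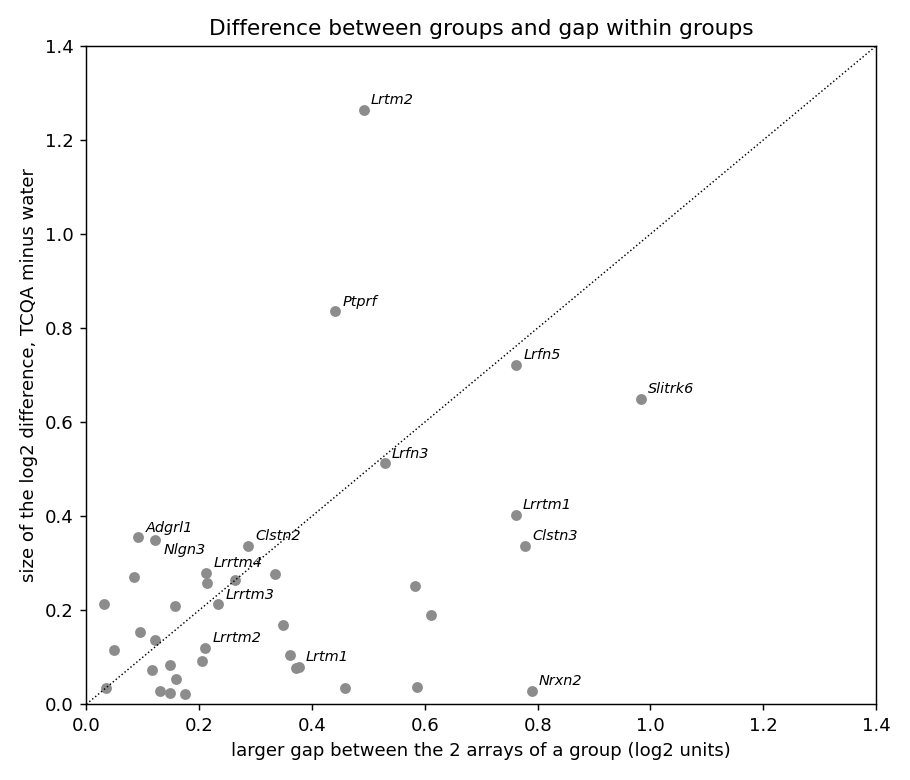
Size of the log2 difference between TCQA and water (vertical) against the larger of the 2 gaps between arrays of a group (horizontal) for the 39 members; on the dotted line both are equal. Lrtm2, which was chosen on this contrast, and Ptprf lie well above the line. Lrfn5 and Lrfn3 lie close to it, and Slitrk6, Lrrtm1, Clstn3 and Nrxn2 lie below it.

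**Figure D5:**
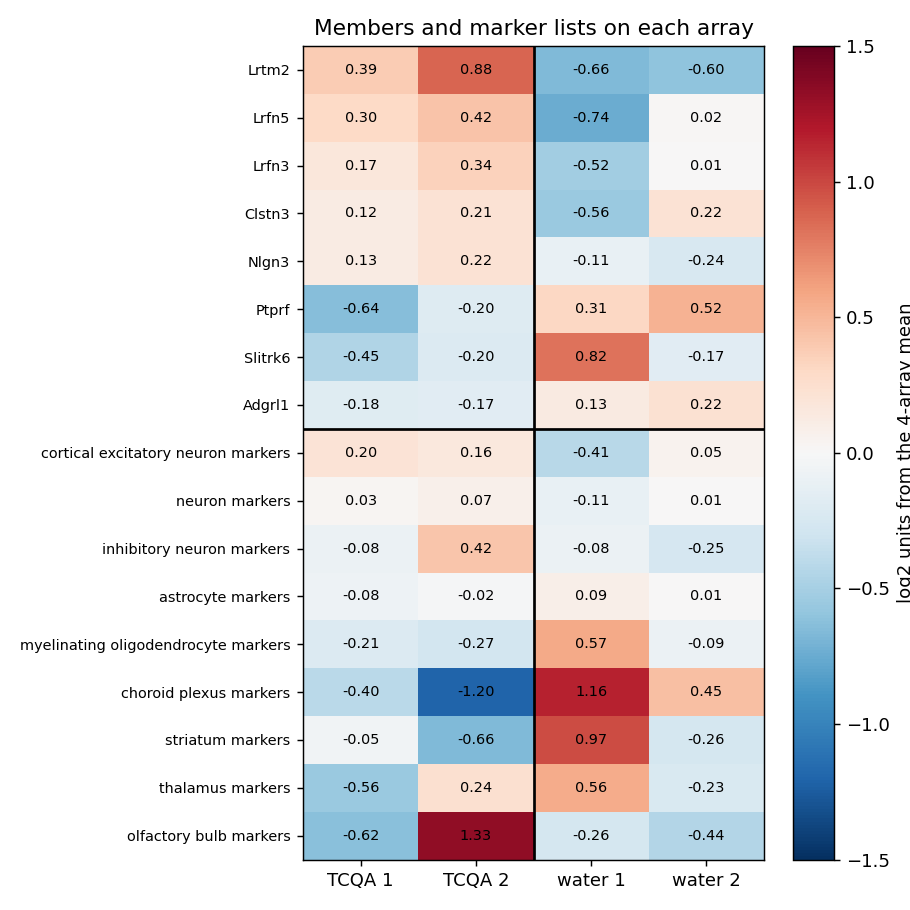
Distance from the 4-array mean in log2 units for 8 members (above the line) and for the mean of 9 marker lists (below it), with the TCQA arrays on the left and the water arrays on the right. Lrfn5, Lrfn3 and Clstn3 are lowest in water 1, as is the mean of the cortical excitatory markers. Slitrk6 is highest there, as are the means of the thalamus, striatum and myelin markers. Lrtm2 is low and the choroid plexus markers are high on both water arrays.

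Proteins that the members bind were compared in 2 further lists. Of 29 measured secreted or membrane partners, such as netrin-Gs, cerebellins, glypicans and teneurins, 17 were higher and 12 lower after TCQA, with a median of 0.080 (0.017 without TCQA 2 and -0.014 without water 2). An unadjusted p under 0.05 (limma) was reached by 1 in each direction and 0 passed after adjustment. Tenm1, a teneurin and so a ligand of latrophilins, had 10.10 and 10.13 after TCQA, against 10.73 and 10.51 after water, a difference of -0.51 (SE 0.19; limma, adjusted p = 0.673). Tenm2 had 11.86 and 11.65 after TCQA, against 11.24 and 11.29 after water, a difference of 0.49 (SE 0.19; limma, adjusted p = 0.673). Leaving out any 1 array ended the unadjusted call of Tenm2 (0.38 to 0.59), and that of Tenm1 was lost without TCQA 1 (-0.49), TCQA 2 (-0.52) or water 1 (-0.40). Grid1, a delta-type glutamate receptor that binds cerebellins, and Nlgn2, the neuroligin of inhibitory synapses, differed by -0.40 (SE 0.20) and -0.38 (SE 0.19).

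Of 19 measured intracellular scaffolds, 12 were higher and 7 lower, with a median of 0.036 (-0.026 without TCQA 2), and 0 had an unadjusted p under 0.05 (limma). Shank3 and Shank1, master scaffolds of the excitatory postsynapse, differed by -0.42 (SE 0.18) and -0.47 (SE 0.21), and the PDZ adaptors Lin7c and Lin7a by 0.36 (SE 0.19) and 0.34 (SE 0.22).

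Of 30 measured leucine-rich repeat membrane or secreted proteins outside the families above, 20 were higher and 10 lower, with a median of 0.11 (0.040 without TCQA 2 and 0.20 without TCQA 1), and 0 reached an unadjusted p under 0.05 (limma). Islr2, Lgi4 and Rtn4rl2, a Nogo receptor homologue, differed by 0.50 (SE 0.21), 0.54 (SE 0.23) and 0.53 (SE 0.23), and Amigo3 by -0.65 (SE 0.28) with all values below the negative control median. Of 35 other synaptic adhesion molecules, 21 were higher and 14 lower, with a median of 0.10 (0.052 without TCQA 2), and 0 reached an unadjusted p under 0.05 (limma). L1cam, an axonal adhesion molecule, differed by 0.43 (SE 0.19), Ephb3, an ephrin receptor with both group means below the control median, by 0.57 (SE 0.26), Cntn2, a contactin of axons, by -0.49 (SE 0.22) and Sdk2, a sidekick protein, by 0.59 (SE 0.33). No gene of these lists exceeded 2-fold with an unadjusted p under 0.05.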

How the data were processed

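Gene expression was measured on 4 Clariom S arrays, 2 per group, from 100 ng of RNA each. The authors deposited log2 signals, 1 per transcript cluster, which per the series' design text came from SST-RMA in version 4.0.2 of the Transcriptome Analysis Console. RMA-type values carry no depth, and the signal space transformation can enlarge fold changes. The authors' detection (0.05) and area-under-curve (0.7) filters were not applied here. The array's build was not given in the sources used here.

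Groups came from the sample labels. Of 28846 rows, 19572 carry 1 gene symbol in the platform annotation, and these were fitted in limma 3.58.1 (R 4.3.3; lmFit and eBayes, TCQA minus water, 2-sided, Benjamini-Hochberg over 19572). The eBayes step moves each gene's variance towards that of all tested. The SE of a gene with narrow groups, such as 0.18 for Flrt3, thus rests largely on other genes. The brightest row stood for a gene. Gene IDs of all 39 measured members matched RefSeq. The fit was tested on simulated data. Members and lists were chosen with earlier results of these data known. All members are named, with up to 4 genes of smallest p per wider list. Array values are printed for Lrtm and LRRTM genes and for members past an unadjusted p of 0.05. They are also printed for members whose groups do not overlap and whose group means differ by at least 0.3, and for others where they show the spread. Alternatives covered normalisation, centring, the variance prior, dim signals, the replicate number as a block and leaving out each array. Same-numbered arrays did not deviate together (r = -0.0032). Figures used matplotlib 3.10.9 in Python 3.11.15.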

Additional observations from a re-analysis of the deposited data

How the results depend on the processing

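With each array left out in turn, the count of members past the study's criteria was 1 to 3, that of members with an unadjusted p under 0.05 was 2 to 6, and over all tested transcript clusters the counts were 218 to 428 and 1011 to 1735, against 130 and 1443 with all arrays. Where 1 array stood alone for a group, it was taken to vary like the other group. With an intensity trend in the prior 5 members had an unadjusted p under 0.05, Nlgn3 and Adgrl1 being added. With dim transcript clusters left out, fewer were tested, 56 and 942 passed, and the LRTM median became that of Lrtm2, 1.26. Lrfn5 lost its unadjusted call under quantile normalisation (0.67) and with every row in the prior. Ranges of medians with an array left out were 0.0042 to 0.11 for all members, 0.060 to 0.22 for LRRTM, -0.12 to 0.12 for Slitrk, -0.21 to 0.11 for FLRT, 0.015 to 0.13 for Cadm, -0.40 to -0.11 for latrophilins, -0.026 to 0.099 for Lrrc4, -0.052 to 0.48 for calsyntenins, -0.014 to 0.11 for membrane partners, -0.026 to 0.040 for scaffolds, 0.040 to 0.20 for other leucine-rich repeat proteins, 0.14 to 0.46 for Lrfn, -0.29 to -0.13 for LAR-type phosphatases, 0.53 to 0.65 for LRTM and 0.052 to 0.081 for other adhesion molecules. Quantile normalisation gave medians of -0.0045 for all members and -0.031 for Slitrk, both opposite in sign to the main fit. It also gave 0.24 for neuroligins, 0.011 for Cadm, -0.0045 for Lrrc4, -0.030 for scaffolds and 0.060 for other adhesion molecules. The cause was not tested. With the replicate number as a block, 3 members had an unadjusted p under 0.05 and 1 met the study's criteria, as without it, and the calls of Tenm1 and Tenm2 were lost. Background correction and slide could not be varied in a table of processed values.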
